A study of Mus musculus with 60 samples.

Results

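The comparison described here sets hepatocytes harvested at 1 h of a culture time course against hepatocytes of the same animals harvested at 0 h. Its members were chosen from the group names in the deposited table, TA_t1 and NIC_t1 against TA_t0 and NIC_t0, which gave 10 libraries at 1 h and 10 libraries at 0 h out of 60 libraries in the series. Each of 10 animals gave 1 library at each time, and the libraries were paired by consecutive library numbers within a title date. All animals were C57BL/6J males, 8 weeks old. Of these, 5 were offspring of TA fathers, which drank a tartaric acid control solution, and 5 were offspring of NIC fathers, which drank nicotine. They are called TA1 to TA5 and NIC1 to NIC5 here, and the dates in the titles put 6 of them on date A (TA1 to TA3, NIC1 to NIC3) and 4 on date B (TA4, TA5, NIC4, NIC5). Liver cells were released with collagenase, plated on gelatin and left to attach, and the clock started once loose cells had been washed away and the medium replaced. Every one of these cultures is labelled as holding DMSO and dexamethasone, a synthetic glucocorticoid, in a medium with serum and an insulin supplement. Time in fresh medium cannot be told apart from time since isolation, because no culture was kept without the change of medium.

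Hepatocytes are the main epithelial cells of the liver, where they make plasma proteins, bile acids and urea and process lipids and drugs. When liver cells are isolated and plated, immediate early genes are known to be switched on within minutes through signalling to transcription factors already present in the cell, and many of their transcripts are short-lived because proteins of the Zfp36 family bind them and speed their decay. Insulin and glucocorticoids in the medium act in addition on metabolic genes, insulin by restraining FOXO factors and dexamethasone through the glucocorticoid receptor. Since these agents and the isolation itself preceded 0 h, the 0 h cells are not a resting state.

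Levels are given as TPM, the share of a library's transcripts that belongs to a gene, scaled by transcript length and to a fixed total. Differences are 1 h minus 0 h within animals on the log2(TPM + 1) scale, which understates the change of low genes. A gene is said to have risen or fallen where the Benjamini-Hochberg adjusted p of limma, a linear model fitted over all tested genes with the animal as a block, was under 0.05. Genes with a mean above 1 TPM were tested, 10174 in all.

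In the first hour 43 genes rose (0.423% of those tested) and 231 fell (2.27%), so that 274 were called in all (2.69%). The changes were small. The median change was 0.51 among genes that rose and -0.51 among genes that fell, and 7 of the genes that rose and 3 of those that fell passed 2-fold. Of these 7, all but Sprr1a were near the floor at 0 h, with means from 0.77 to 2.23 TPM. In no called gene were all libraries of one time above all libraries of the other. The direction was the same in all 10 animals for 18 of the 43 genes that rose and for 126 of the 231 that fell. Early stress and growth response genes such as Sprr1a, Klf6, Plk2 and Ifrd1 were among the genes that rose, and genes for histones, the clock repressor Bhlhe40 and the mRNA decay factor Zfp36l1 were among those that fell. Fos, Egr1 and Myc, the best known immediate early genes, did not pass the test.

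The sizes of both lists depended on how the libraries were scaled and on single animals. Under median-ratio scaling 115 genes rose and 75 fell, and all 43 and 75 of the 231 were kept. Without the 20 most abundant genes in the total, 44 rose and 71 fell, of which 37 and 71 were shared with the lists above. After a correction for transcript length and GC content, chosen after the data were seen, 18 rose and 20 fell, of which 17 and 20 were shared. The median change over all genes was -0.07 as deposited, 0.02 with median-ratio scaling, -0.04 without the most abundant genes and 0.00 after the correction. Leaving out 1 animal gave 23 higher and 99 lower genes without TA2, 6 and 13 without TA3, 14 and 53 without TA4, and 20 and 100 without TA5. It gave 45 and 418 without TA1, 25 and 93 without NIC1, 9 and 16 without NIC2, 11 and 44 without NIC3, 27 and 109 without NIC4, and 36 and 173 without NIC5. With 6 genes that rose (Sprr1a, Klf6, Txnip, Angptl4, Fam84a and 5031425E22Rik) and 10 that fell, 16 calls held whichever animal was left out. Of these genes, Fam84a had a 0 h mean of 0.77 TPM and passed the filter only through its 1 h values, which favours a rise.

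The change went with transcript length. From the shortest to the longest length decile, the median difference went from 0.04 (median length 918 nt) to -0.21 (8034 nt), and across 10117 genes, which are not independent replicates, Spearman's rho of the change was -0.31 with length and -0.20 with GC content. The longest decile lay below the shortest in each of 10 animals, by 0.22 ± 0.15 on average (SD, log2 scale), from -0.553 in NIC2 to -0.004 in NIC5 (2-sided exact sign-flip permutation p = 0.00195, the smallest that all sign patterns of 10 animals can give). Genes that rose had a median length of 2143 nt and genes that fell one of 4682 nt, against 3006 nt for all genes. In the longest decile 70 genes fell and 1 rose, and in the shortest 6 fell and 15 rose. The cause of this relation was not tested. The results that follow therefore lead with the 34 genes called under all 4 scalings, a set chosen after the data were seen, of which 17 rose and 17 fell. Among the 17 that rose, Sebox, Dnajc17, Fam84a and Btbd19 passed the filter on low values only through their 1 h values.

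**Figure D1:**
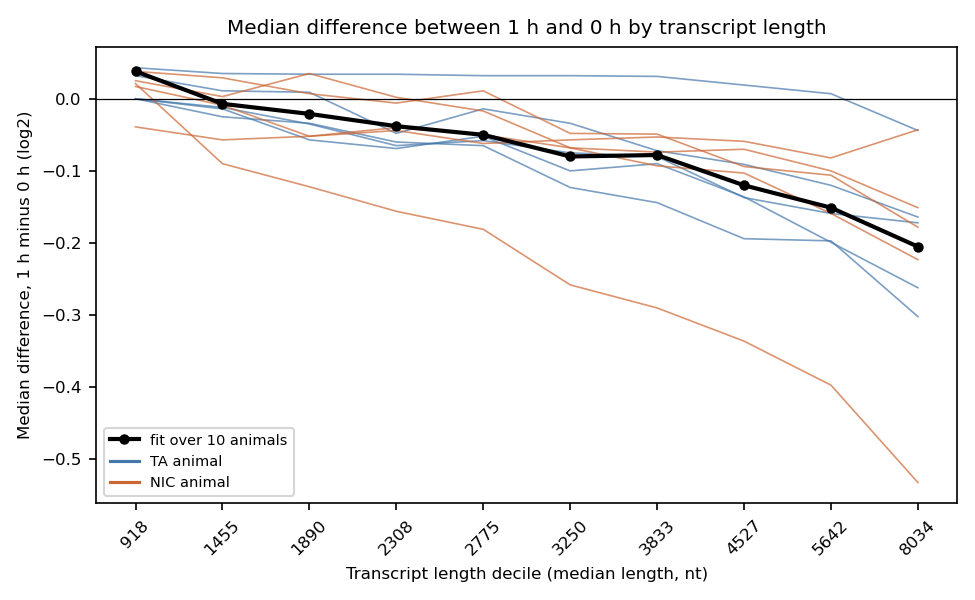
Change from 0 h to 1 h on the log2(TPM + 1) scale (vertical axis) by transcript length decile (horizontal axis, median length in nt). Thin lines are the medians of single animals (blue, TA; orange, NIC) and the black line is the median of the changes fitted over 10 animals. The median change went from 0.04 in the shortest decile to -0.21 in the longest, and the longest decile lay below the shortest in all 10 animals.

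The libraries were also compared as a whole between the times. Relative depth, estimated from the smallest steps of the values against the deepest of the 30 libraries used, ran from 0.217 to 0.785 at 0 h and from 0.423 to 0.867 at 1 h, and was higher at 1 h in 7 of 10 animals (exact sign-flip permutation p = 0.043). The 20 most abundant genes held 38.5% of the TPM on average at 0 h and 40.2% at 1 h (higher in 9 of 10 animals, exact sign-flip permutation p = 0.00977), and the number of genes above 0 was 12061 and 12053 (p = 0.975 by the same exact test). The 6 hepatocyte markers summed to between 100675 and 150982 TPM at 0 h and between 99558 and 150312 TPM at 1 h, and albumin (Alb) ran from 77026 to 126130 TPM at 0 h (median 93710) and from 75505 to 128310 TPM at 1 h (median 98741). No tested marker of another liver cell type was called. In these bulk samples, fewer cells of a type and less RNA per cell cannot be told apart.

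**Figure D2:**
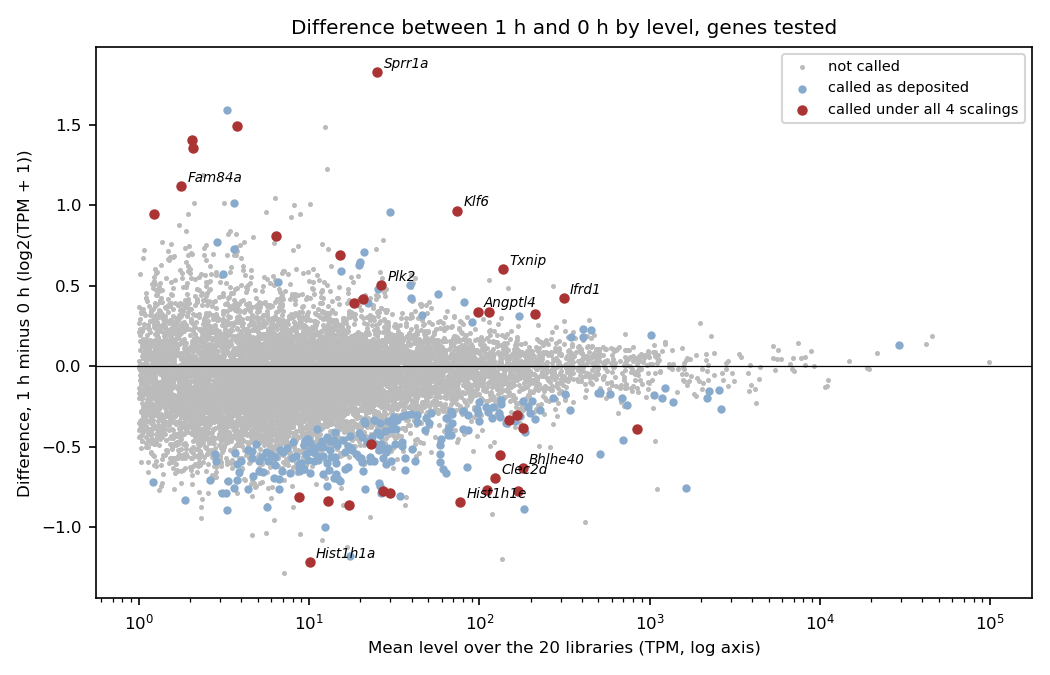
Change from 0 h to 1 h on the log2(TPM + 1) scale (vertical axis) against mean level (horizontal axis, TPM, log scale), with 1 point for each of 10174 genes. Grey points were not called, blue points are called genes and red points are the 34 genes called under all 4 scalings. The 43 genes that rose had a median change of 0.51 and the 231 that fell one of -0.51.

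Among the early response genes that rose, Sprr1a was the clearest. It encodes a small proline-rich protein that is cross-linked into the envelope of squamous epithelia and is known to be induced in injured cells of other tissues. Sprr1a (chr3:92483952-92485895, GRCm38) ran from 0 to 39.9 TPM at 0 h (median 9.30) and from 10.2 to 125 TPM at 1 h (median 25.4). It rose in all 10 animals, by 0.53 in NIC4 up to 3.78 in NIC1, where the 0 h library was listed at 0, although the groups overlapped because the 0 h levels differed widely between animals. The mean change was 1.83 ± 0.24 SE, adjusted p = 0.00641.

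Klf6 (chr13:5861482-5870394), a zinc finger transcription factor of the early response, ran from 19.8 to 124 TPM at 0 h (median 39.3) and from 31 to 221 TPM at 1 h (median 68.2). It was higher at 1 h in 9 of 10 animals, NIC4 being level at -0.01, and the change was 0.97 ± 0.12 SE, adjusted p = 0.00641. Tnfrsf12a, the receptor of the cytokine TWEAK, is named here after its values were seen. Its level ran from 4.63 to 53.7 TPM at 0 h (median 11.2) and from 8.40 to 121 TPM at 1 h (median 19.6), with a change of 0.96 ± 0.19 SE, adjusted p = 0.0264, and it did not pass after the length and GC correction (adjusted p = 0.0566). At 1 h TA1 was the highest library for Sprr1a and Klf6 and TA4 for Tnfrsf12a.

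Txnip encodes a thioredoxin-binding protein that limits glucose uptake and is known to follow glucose and FOXO activity. It ran from 53.1 to 232 TPM at 0 h (median 86) and from 90.3 to 302 TPM at 1 h (median 145) and rose in all 10 animals (change 0.61 ± 0.09 SE, adjusted p = 0.00905). It overlaps Gm15441 on the other strand. Plk2, a polo-like kinase gene that p53 is known to induce, ran from 14.8 to 33.9 TPM at 0 h (median 20.1) and from 19.4 to 41.6 TPM at 1 h (median 32.5) and rose in all 10 animals (change 0.51 ± 0.09 SE, adjusted p = 0.0194).

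Ifrd1, an early gene for a transcriptional coregulator also known as Tis7, ran from 106 to 744 TPM at 0 h (median 191) and from 121 to 955 TPM at 1 h (median 239), and its change was 0.42 ± 0.09 SE, adjusted p = 0.0299. Mcl1 encodes a short-lived member of the Bcl-2 family that holds off apoptosis. Its level ran from 56.3 to 202 TPM at 0 h (median 87.1) and from 74.5 to 246 TPM at 1 h (median 96.8) and its change was 0.33 ± 0.08 SE, adjusted p = 0.0458. The ranges of both genes at 0 h and 1 h overlapped almost entirely, and the calls rest on the pairing by animal, with a higher value at 1 h in 9 of 10 animals for each.

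Angptl4, a secreted inhibitor of lipoprotein lipase that both glucocorticoids and fatty acids induce, ran from 40.2 to 151 TPM at 0 h (median 76.6) and from 57.7 to 171 TPM at 1 h (median 97.8) (change 0.34 ± 0.06 SE, adjusted p = 0.0194) and rose in all 10 animals. Vmp1, an endoplasmic reticulum membrane protein gene needed for autophagosome formation, ran from 143 to 220.4 TPM at 0 h (median 189.7) and from 172 to 339.7 TPM at 1 h (median 229) (change 0.33 ± 0.07 SE, adjusted p = 0.0277). Mrpl48, a subunit of the mitochondrial ribosome, went by its medians from 18.9 to 22.4 TPM (change 0.42 ± 0.08 SE, adjusted p = 0.0264). Sf3b5, a small subunit of the splicing factor SF3b, and Zfand5, a zinc finger protein gene that acts with the proteasome, also rose under all 4 scalings. They are named after their values were seen. Sf3b5 went from 9.88 to 19.1 TPM (change 0.69 ± 0.15 SE, adjusted p = 0.0325) and Zfand5 from 14.2 to 19.9 TPM (change 0.39 ± 0.10 SE, adjusted p = 0.0486).

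**Figure D3:**
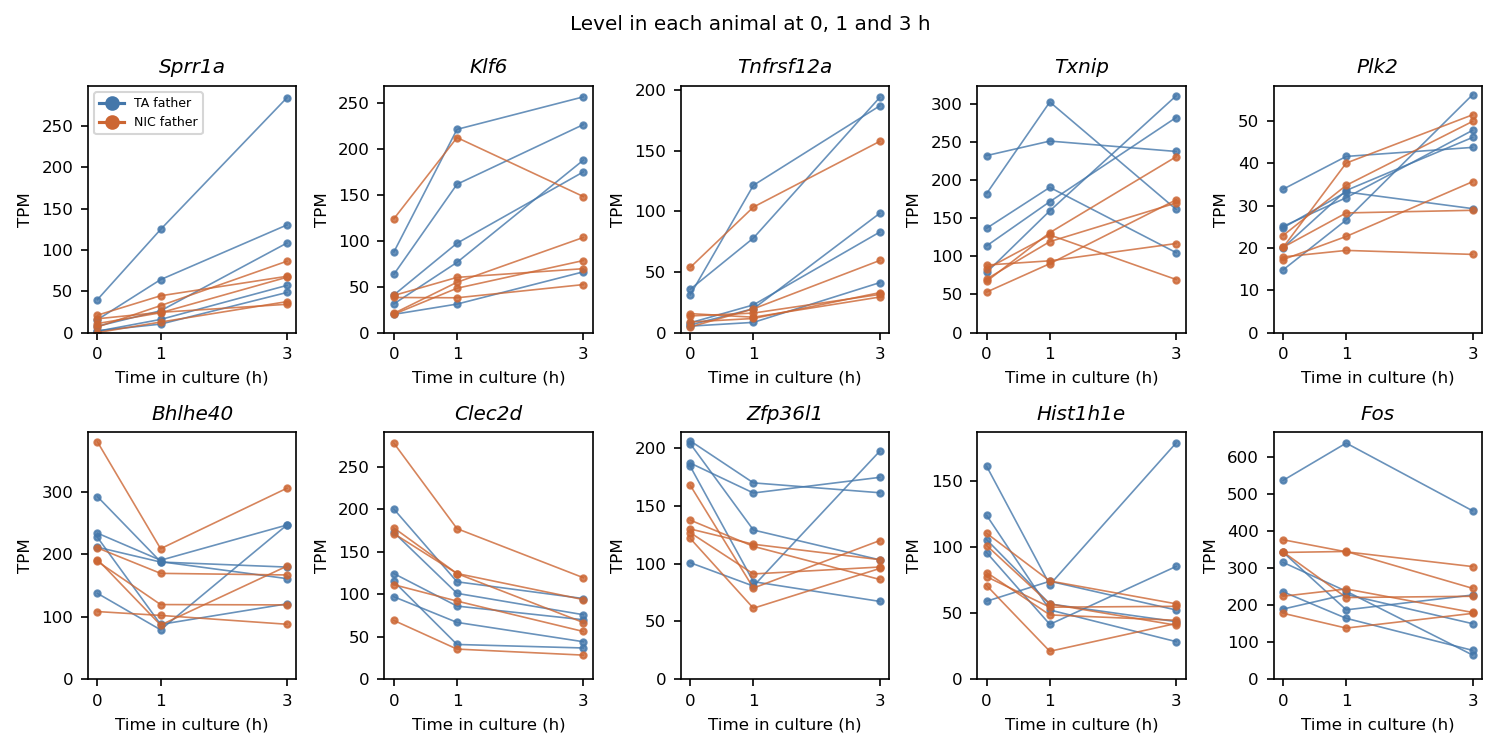
TPM (vertical axis) at 0, 1 and 3 h (horizontal axis) for 10 genes, with 1 line for each animal (blue, 5 offspring of TA fathers; orange, 5 offspring of NIC fathers). Sprr1a went up from a median of 9.30 TPM at 0 h to 25.4 at 1 h and 67.5 at 3 h, while Clec2d went down from 148 to 96.4 and 68.3.

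The promoters of 4 of these genes are shown because each holds a motif of a factor that is known to act in early or stress responses. The sequences are the 250 bases before the RefSeq start (GRCm38.p6), read 5′ to 3′ on the gene's strand, with the motif in capitals. In Sprr1a (chr3:92485882-92486131, minus strand) the capitals mark 2 AP-1 motifs (TGANTCA) that begin 146 and 116 bases before the start. In Klf6 (chr13:5861239-5861488, plus strand) they mark an E-box (CACGTG) 43 bases before the start. In Plk2 (chr13:110394794-110395043, plus strand) they mark a cyclic AMP response element (TGACGTCA), which holds the shorter motif TGACG, 62 bases before the start. In Hspa1a (chr17:34972157-34972406, minus strand) they mark a short heat shock element (GAANNTTC), a motif added after the data were seen, 104 bases before the start.
Sprr1a: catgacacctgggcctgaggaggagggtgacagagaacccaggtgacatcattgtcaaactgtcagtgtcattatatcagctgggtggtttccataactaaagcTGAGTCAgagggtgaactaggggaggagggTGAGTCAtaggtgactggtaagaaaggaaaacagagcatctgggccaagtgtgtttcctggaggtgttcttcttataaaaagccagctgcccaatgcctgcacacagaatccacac
Klf6: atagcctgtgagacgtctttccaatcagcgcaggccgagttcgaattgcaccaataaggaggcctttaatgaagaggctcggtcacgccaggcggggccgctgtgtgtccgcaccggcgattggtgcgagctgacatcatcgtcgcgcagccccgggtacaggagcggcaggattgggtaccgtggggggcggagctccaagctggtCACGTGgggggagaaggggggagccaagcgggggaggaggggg
Plk2: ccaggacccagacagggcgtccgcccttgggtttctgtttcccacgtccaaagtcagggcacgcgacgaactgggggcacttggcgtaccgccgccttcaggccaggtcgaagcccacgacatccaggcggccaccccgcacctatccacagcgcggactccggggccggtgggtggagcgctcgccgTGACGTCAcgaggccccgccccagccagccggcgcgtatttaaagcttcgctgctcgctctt
Hspa1a: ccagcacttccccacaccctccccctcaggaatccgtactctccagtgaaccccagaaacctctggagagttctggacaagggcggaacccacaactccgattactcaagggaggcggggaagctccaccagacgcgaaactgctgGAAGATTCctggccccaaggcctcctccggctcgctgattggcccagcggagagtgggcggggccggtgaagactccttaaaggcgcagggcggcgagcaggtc

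A window of 300 bases, 250 before and 50 after the start, was found for 7833 of the genes tested, 35 of the genes that rose and 168 of those that fell, and both strands were searched. TGANTCA was in the windows of 8.57% of the genes that rose, 7.74% of those that fell and 6.37% of all genes tested. CACGTG was in 11.4%, 13.7% and 12.2%, and TGACGTCA in 8.57%, 1.79% and 3.78%. GAANNTTC was in 8.57%, 5.36% and 7.26%. With 3 genes that rose behind each of the shares of 8.57%, these shares are a description only. The full palindromic glucocorticoid response element, searched as well, was in none of the windows of called genes and in 0.0255% of all.

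A further 5 genes that rose under all 4 scalings were near 0 TPM at 0 h and are named after their values were seen. The noncoding gene 5031425E22Rik ran from 0.476 to 2.95 TPM at 0 h (median 1.29) and from 2.66 to 12.1 TPM at 1 h (median 5.57) (change 1.49 ± 0.23 SE, adjusted p = 0.0114). It was the only gene called without the animal as a block, and it overlaps 4930580E04Rik on the other strand. Sebox, a homeobox gene known from oocytes, ran from 0 to 2.78 TPM at 0 h (median 0.308) and from 1.68 to 6.87 TPM at 1 h (median 3.05). Dnajc17, a J-domain protein gene that overlaps Zfyve19 on the other strand, ran from 0 to 3.10 TPM at 0 h (median 0.471) and from 0.969 to 7.36 TPM at 1 h (median 2.77). Fam84a had medians that went from 0.445 to 2.14 TPM and rose in all 10 animals, and Btbd19 went from 0 to 1.34 TPM and was higher in 9 of 10 animals, with equal values in the remaining animal. At these levels a library holds few reads of the gene, so the changes (Sebox 1.41, Dnajc17 1.36, Fam84a 1.12, Btbd19 0.95) are less well measured than those of the abundant genes. Sebox, Dnajc17, Fam84a and Btbd19 had 0 h means of 0.77, 0.80, 0.77 and 0.41 TPM. They passed the filter at 1 TPM only through their 1 h values, so the filter itself favours a rise in such genes.

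Among the genes that fell, Clec2d, which encodes a C-type lectin that natural killer cells recognise, ran from 69.1 to 278 TPM at 0 h (median 148) and from 35.3 to 177 TPM at 1 h (median 96.4). It was lower at 1 h in all 10 animals, by 0.27 in NIC4 up to 1.47 in TA4, with a mean change of -0.69 ± 0.09 SE, adjusted p = 0.00645. The call held whichever animal was left out. Eif4g3, a scaffold of translation initiation, ran from 6.56 to 16.6 TPM at 0 h (median 11.7) and from 3.15 to 9.23 TPM at 1 h (median 5.73) (change -0.81 ± 0.12 SE, adjusted p = 0.00905), and it too fell in all 10 animals and was called in all 10 leave-one-out fits.

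A further 5 genes fell under all 4 scalings. Mccc1, a subunit of the carboxylase that breaks down leucine, went from 21.5 to 12.2 TPM by its medians (change -0.86 ± 0.16 SE, adjusted p = 0.0194). Dhcr7, a late enzyme of cholesterol synthesis, went from 33.1 to 19.7 TPM (change -0.77 ± 0.15 SE, adjusted p = 0.0214). Ahcyl1, which binds the inositol trisphosphate receptor, went from 37.4 to 19.6 TPM (change -0.79 ± 0.14 SE, adjusted p = 0.0195), and Reep6, a shaping protein of the endoplasmic reticulum, from 131 to 70.9 TPM (change -0.77 ± 0.16 SE, adjusted p = 0.0299). Taf15, an RNA-binding protein gene of the FET family, went from 17.8 to 8.56 TPM (change -0.84 ± 0.15 SE, adjusted p = 0.0188). Mccc1, Ahcyl1, Reep6 and Taf15 were lower at 1 h in all 10 animals and Dhcr7 in 9 of 10 animals.

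Of the genes that fell under all 4 scalings, 4 are named after their values were seen. Gjb2, a gap junction connexin of hepatocytes, ran from 169.8 to 245 TPM at 0 h (median 203) and from 104 to 212 TPM at 1 h (median 165) (change -0.38 ± 0.08 SE, adjusted p = 0.0261). Vcp, an ATPase that extracts proteins for degradation, ran from 121 to 206 TPM at 0 h (median 166) and from 100.3 to 164 TPM at 1 h (median 135) (change -0.33 ± 0.06 SE, adjusted p = 0.0188). Suclg1 encodes a subunit of succinyl-CoA ligase in the citric acid cycle, and it went from 173 to 139 TPM (change -0.31 ± 0.06 SE, adjusted p = 0.0234). F830016B08Rik went from 27.5 to 18.7 TPM (change -0.49 ± 0.10 SE, adjusted p = 0.0263).

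Other large falls were lost in part of the scalings. Of the genes with the largest falls in all 10 animals, Phactr4 (-0.88), Ppm1l (-0.76), Gtf2i (-0.71), Lrp5 (-0.70), Midn (-0.69), Rptor (-0.68), Trim25 (-0.67) and Prepl (-0.66) did not pass after the length and GC correction. Rptor encodes the raptor subunit of the growth-regulating kinase mTORC1, Lrp5 a Wnt coreceptor and Trim25 a ubiquitin ligase of antiviral signalling. Rptor went from 6.03 to 2.94 TPM (change -0.68 ± 0.13 SE, adjusted p = 0.0257), and its adjusted p was 0.0381 with median-ratio scaling and 0.179 after the correction. In the other direction Aspa (0.59), Rnf138 (0.52), Eif6 (0.32) and Sult2a8 (0.19) rose in all 10 animals and also did not pass after it.

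Histone genes of the replication cluster had the lowest median change of the 45 lists with members tested. Their transcripts normally carry no poly(A) tail and are made in S phase, and libraries from rRNA-depleted RNA retain them. Of 33 tested, 0 rose and 4 fell, beside 0.423% and 2.27% of all genes. Their median change was -0.49 beside -0.07 for all genes, with medians of -0.45 under median-ratio scaling and -0.46 after the length and GC correction. The median of the list was below 0 in 8 of 10 animals and above 0 in none. That of all genes was below 0 in every animal but TA1 (0.03). The linker histone gene Hist1h1e (chr13:23620629-23622558) ran from 58.9 to 161 TPM at 0 h (median 98.4) and from 21 to 74.3 TPM at 1 h (median 55.7) (change -0.84 ± 0.14 SE, adjusted p = 0.0188), with a rise of 0.32 in TA5, the only animal in which it was higher. Hist1h1a, another linker histone, ran from 5.98 to 22.9 TPM at 0 h (median 13.9) and from 1.40 to 10.8 TPM at 1 h (median 5.80) (change -1.21 ± 0.24 SE, adjusted p = 0.0263). Hist1h4d and Hist1h4k encode histone H4 and have near-identical copies, so that reads may be shared among them. Hist1h4d went from 198 to 136 TPM (change -0.78 ± 0.15 SE, adjusted p = 0.0205) and Hist1h4k from 17.4 to 8.81 TPM (change -1.18 ± 0.28 SE, adjusted p = 0.0446), Hist1h4k missing the threshold under median-ratio scaling (adjusted p = 0.0625) and after the correction (0.0755). Hist1h1e overlaps Hist1h2be on the same strand.

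The immediate early transcription factors did not move together. Of 24 tested, 1 rose (Klf6) and 1 fell (Bhlhe40), beside 0.423% and 2.27% of all genes, and the median was 0.01 beside -0.07 for all genes. Fos, a component of AP-1, ran from 178 to 536 TPM at 0 h (median 328) and from 138 to 637 TPM at 1 h (median 233), with a change of -0.23 ± 0.10 SE (adjusted p = 0.216). Egr1, a zinc finger factor, had a change of -0.10 ± 0.18 SE (adjusted p = 0.797), higher in 5 animals and lower in 5. Myc, a growth regulator, had one of -0.23 ± 0.10 SE (adjusted p = 0.197). These high levels at 0 h, 328 TPM for Fos and 548 TPM for the stress factor Atf3, were present before the hour began. Maff (0.38, adjusted p = 0.0572) and Mafk (0.42, adjusted p = 0.0803), small Maf factors, and Atf3 (-0.16, adjusted p = 0.0713) missed the threshold, and Maff passed with median-ratio scaling (adjusted p = 0.0441).

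The joint list of mRNA decay and antiproliferative early genes had the second lowest of the list medians given here. Of 8 tested, 1 rose (Ifrd1) and 2 fell (Zfp36l1 and Zfp36), beside 0.423% and 2.27% of all genes, with a median of -0.35. Zfp36l1 ran from 101 to 206 TPM at 0 h (median 153) and from 61.3 to 169.8 TPM at 1 h (median 103) (change -0.55 ± 0.10 SE, adjusted p = 0.0195). Zfp36, or tristetraprolin, which binds AU-rich elements of early transcripts, ran from 412 to 956 TPM at 0 h (median 561) and from 222 to 846 TPM at 1 h (median 406) (change -0.55 ± 0.12 SE, adjusted p = 0.0332), and it missed the threshold with median-ratio scaling (adjusted p = 0.0546) and after the correction (0.0780). Among 15 growth arrest and stress genes 2 rose, Mcl1 and Plk2, and 0 fell. Their median was -0.03, and it was above 0 with median-ratio scaling (0.07) and after the correction (0.02). None of 16 phosphatases and feedback genes of MAP kinase signalling was called, among them Dusp1 (from 78.2 to 172 TPM at 0 h (median 120.4) and from 90.2 to 171 TPM at 1 h (median 113); change -0.09 ± 0.06 SE, adjusted p = 0.441).

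Clock genes included 2 that fell and none that rose among 19, beside 2.27% and 0.423% of all genes. Their median of -0.18 was below 0 in each animal, and that of all genes (-0.07) in every animal but TA1 (0.03). The list median was -0.09 with median-ratio scaling and -0.06 after the length and GC correction. Bhlhe40, which represses the E-box genes driven by CLOCK and BMAL1, ran from 108 to 379.9 TPM at 0 h (median 211) and from 78.9 to 209 TPM at 1 h (median 144) (change -0.63 ± 0.11 SE, adjusted p = 0.0188) and fell in all 10 animals. Per2, a core repressor, ran from 1.76 to 18.5 TPM at 0 h (median 10.6) and from 0.694 to 14.4 TPM at 1 h (median 6.60) (change -0.61 ± 0.15 SE, adjusted p = 0.0486). It missed the threshold with median-ratio scaling (adjusted p = 0.0688) and after the correction (0.223). Per1, a glucocorticoid-responsive period gene, had a change of -0.29 ± 0.16 SE (adjusted p = 0.307).

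**Figure D4:**
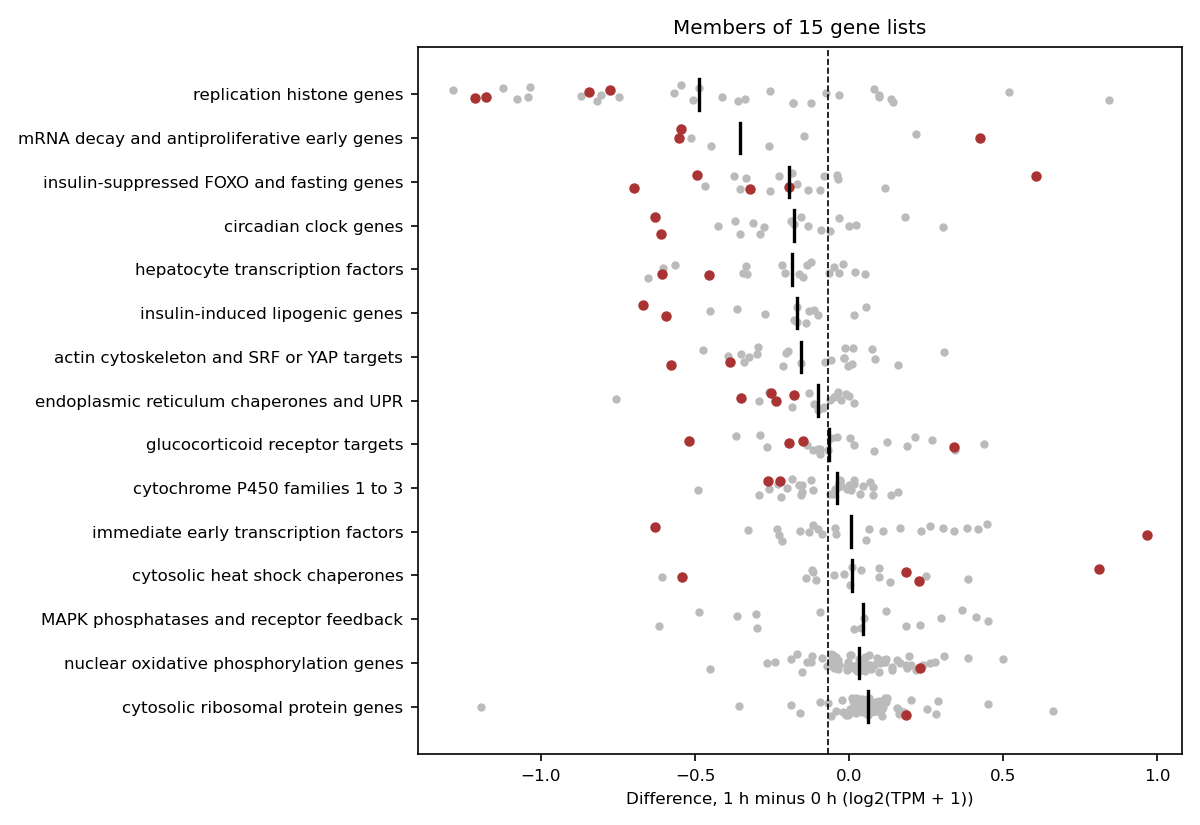
Change from 0 h to 1 h (log2(TPM + 1) scale) for the members of 15 gene lists, 1 point for each gene, with called genes in red, a black bar at the list's median and a dashed line at the median of all genes, -0.07. The histone list has the lowest bar, at -0.49, and the ribosomal protein list lies above 0, at 0.06.

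The list of cytosolic heat shock chaperones, which also holds the mitochondrial Hspe1, included 3 genes that rose and 1 that fell among 19. These counts stand beside 0.423% and 2.27% of all genes, and the list median was 0.01. Hspa1a, the inducible Hsp70, has a near-identical neighbour, Hspa1b, and ran from 0.878 to 11 TPM at 0 h (median 4.61) and from 1.29 to 20.3 TPM at 1 h (median 7.86) (change 0.81 ± 0.18 SE, adjusted p = 0.0383), rising in all 10 animals. Hsp90aa1, the inducible cytosolic Hsp90, ran from 204 to 699 TPM at 0 h (median 375) and from 231 to 737 TPM at 1 h (median 460.0) (change 0.23 ± 0.05 SE, adjusted p = 0.0390). Hspe1, the mitochondrial co-chaperonin Hsp10, had a change of 0.18 ± 0.05 SE, adjusted p = 0.0486, and Hsph1, an exchange factor of Hsp70, fell from 72.9 to 50.2 TPM by its medians (change -0.54 ± 0.11 SE, adjusted p = 0.0318). Hspa1a alone of the 4 passed after the length and GC correction, and Hsph1 also missed the threshold with median-ratio scaling (adjusted p = 0.0593). Of 21 chaperones and response genes of the endoplasmic reticulum, 4 fell and 0 rose, beside 2.27% and 0.423% of all genes, and 20 were below 0, beside 6489 of all 10174. Their median of -0.10 compares with -0.07 for all genes, and it was -0.00 beside 0.02 with median-ratio scaling. Those that fell were Hsp90b1, or Grp94 (-0.18), the unfolded protein response factor Xbp1 (-0.25), calreticulin (Calr, -0.24) and Sel1l (-0.35), a subunit of the degradation complex of that compartment, and none of them passed with median-ratio scaling. After the length and GC correction Hsp90b1 alone of these passed (adjusted p = 0.0498), and the list median was -0.05 beside 0.00 for all genes. ATF4 targets gave no call among 21, and Atf4 itself had a change of 0.54 ± 0.15 SE (adjusted p = 0.0654), higher in 10 of 10 animals, and it passed with median-ratio scaling (adjusted p = 0.0441), which called 1 gene of the list.

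Of 24 targets of the glucocorticoid receptor, 1 rose (Angptl4) and 3 fell, beside 0.423% and 2.27% of all genes. Their median was -0.06 beside -0.07 for all genes, and 0.03 beside 0.02 under median-ratio scaling. Zbtb16, a transcriptional repressor that glucocorticoids induce, ran from 15.4 to 45.1 TPM at 0 h (median 30.9) and from 11.9 to 34 TPM at 1 h (median 21.4) (change -0.52 ± 0.09 SE, adjusted p = 0.0188). Tat, tyrosine aminotransferase, ran from 1875 to 3701 TPM at 0 h (median 2418) and from 1647 to 3366 TPM at 1 h (median 2167) (change -0.15 ± 0.03 SE, adjusted p = 0.0264). Pck1, the gluconeogenic carboxykinase that insulin represses, ran from 1515 to 3168 TPM at 0 h (median 2316) and from 1183 to 2891 TPM at 1 h (median 2031) (change -0.20 ± 0.05 SE, adjusted p = 0.0486). Tat and Pck1 missed the threshold with median-ratio scaling (adjusted p = 0.424 and 0.237), and none of the 3 passed after the length and GC correction (Zbtb16 0.102, Tat 0.140, Pck1 0.314).

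Genes that insulin suppresses through FOXO factors had 1 that rose (Txnip) and 4 that fell among 19, beside 0.423% and 2.27% of all genes, and 17 of 19 were below 0, beside 6489 of all 10174. The median was -0.20 beside -0.07, and of the 4 that fell 1 passed with median-ratio scaling (list median -0.10) and 0 after the length and GC correction (list median -0.08). Beside Pck1, Bcl6, a repressor induced by fasting, went from 17 to 10.3 TPM (change -0.70 ± 0.14 SE, adjusted p = 0.0277), Foxo1 itself from 21 to 14.4 TPM (change -0.49 ± 0.11 SE, adjusted p = 0.0387) and Cpt1a, the gate of mitochondrial fatty acid oxidation, from 131 to 109 TPM (change -0.32 ± 0.08 SE, adjusted p = 0.0454). With median-ratio scaling Bcl6 passed (adjusted p = 0.0441) and Foxo1 and Cpt1a did not (0.0585 and 0.0821), and after the correction the adjusted p values were 0.0780, 0.242 and 0.287. Igfbp1, the classical target of insulin in liver, ran from 329 to 1588 TPM at 0 h (median 669.9) and from 329 to 1926 TPM at 1 h (median 657) and did not pass (change -0.04 ± 0.07 SE, adjusted p = 0.814). Of 14 lipogenic genes, which insulin induces, 0 rose and 2 fell, Acacb (change -0.67 ± 0.15 SE, adjusted p = 0.0335) and Fasn (change -0.60 ± 0.14 SE, adjusted p = 0.0466), which make malonyl-CoA and fatty acids. The list median was below 0 in all 10 animals (-0.17), and that of all genes in every animal but TA1 (0.03). The list median was -0.07 both with median-ratio scaling and after the length and GC correction. Acacb and Fasn have long transcripts, of 8788 and 10050 nt, and neither passed after the length and GC correction (adjusted p = 0.202 and 0.266).

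The counts in this paragraph stand beside 0.423% of all genes that rose and 2.27% that fell. Targets of SREBP2 gave 2 genes that fell among 23, with Dhcr7 as the one of larger change, and a median of -0.09 that was 0.01 under median-ratio scaling. Targets of PPAR alpha, the fatty acid sensor of liver, gave 1 that rose (Angptl4) and 3 that fell, with Cpt1a and Cpt2 among them, of 29 tested, with a median of -0.01. Cpt2, the inner carnitine palmitoyltransferase, had a change of -0.28 ± 0.06 SE, adjusted p = 0.0402 and missed the threshold with median-ratio scaling (adjusted p = 0.118). Cytokine feedback genes gave 1 that rose (Mcl1) and 3 that fell among 14, namely Cish (-0.54), the interleukin 6 receptor Il6ra (-0.65) and Socs3 (-0.35). Hypoxia-inducible genes gave 2 that fell among 19, the glycolytic regulator Pfkfb3 (-0.49) and the angiogenic factor Vegfa (-0.34), the only one called of 9 secreted early genes. Of these 5 genes, Cish, Il6ra and Pfkfb3 passed with median-ratio scaling (adjusted p = 0.0289, 0.0478 and 0.0479) and Socs3 and Vegfa did not (0.109 and 0.0960), and none passed after the length and GC correction. Among 25 actin and SRF or YAP genes 2 fell, with nonmuscle myosin Myh9 (change -0.39 ± 0.10 SE, adjusted p = 0.0486, adjusted p = 0.0940 with median-ratio scaling) as one of them, and the list median of -0.15 was 0.00 after the length and GC correction.

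Of 20 hepatocyte transcription factors 0 rose and 2 fell, beside 0.423% and 2.27% of all genes, and 18 of 20 were below 0, beside 6489 of all 10174 genes. Their median was -0.18 beside -0.07 for all genes, and -0.09 beside 0.02 with median-ratio scaling. After the length and GC correction it was -0.09 beside 0.00. The factors that fell were Prox1 (change -0.61 ± 0.14 SE, adjusted p = 0.0446), a homeobox factor of liver development, and Onecut2 (change -0.46 ± 0.11 SE, adjusted p = 0.0454), a relative of hepatocyte nuclear factor 6. Of 36 cytochrome P450 genes of families 1 to 3, 2 fell, Cyp2d9 (-0.22) and Cyp2d22 (-0.26), whose reads may be shared with close relatives. The median of these 36 genes was -0.04, with 0.05 under median-ratio scaling. After the length and GC correction it was -0.10 beside 0.00 for all genes. Bile acid genes gave 2 that fell among 24, the sterol hydroxylase Cyp8b1 (-0.31) and the canalicular pump Abcc2 (-0.29). Amino acid catabolism gave 4 that fell among 49, Mccc1, Tat, Gpt2 (-0.20) and Aldh4a1 (-0.23). Except Mccc1, the genes named in this paragraph missed the threshold with median-ratio scaling.

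Secreted proteins of hepatocytes gave 1 that rose and 1 that fell among 20, beside 0.423% and 2.27% of all genes. Mup3, a major urinary protein with near-identical relatives, ran from 23959 to 31268 TPM at 0 h (median 27735) and from 27248 to 33735 TPM at 1 h (median 30100) (change 0.13 ± 0.03 SE, adjusted p = 0.0318), but its change was -0.05 after the length and GC correction. Rbp4, the plasma carrier of retinol, ran from 1224 to 3732 TPM at 0 h (median 1749.8) and from 694 to 1807 TPM at 1 h (median 1095) (change -0.76 ± 0.18 SE, adjusted p = 0.0483), and it passed neither with median-ratio scaling (adjusted p = 0.0719) nor after the correction (0.0897). Of 26 acute phase genes only Itih4 (-0.13) was called, with 0.01 after the correction, and of 17 NRF2 targets only the ferritin gene Fth1 (-0.46). Itih4 and Fth1 did not pass with median-ratio scaling (adjusted p = 0.642 and 0.101) or after the correction (0.903 and 0.122).

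Genes of the translation and energy machinery lay slightly above the other genes, with few calls, where 0.423% of all genes rose and 2.27% fell. Of 78 cytosolic ribosomal protein genes 1 rose (Rpl13a, 0.18), 0 fell and 66 were above 0, against 36.2% of all genes, with a median of 0.06 that was 0.16 under median-ratio scaling and 0.04 after the correction. These transcripts are short, with a median of 926 nt. Of 74 nuclear genes of oxidative phosphorylation 1 rose, Uqcrh of complex III (0.23), and the median was 0.03, with 0.13 under median-ratio scaling and 0.01 after the correction. Of 37 proteasome genes the ATPase Psmc6 (0.28) rose and Psmd11 (-0.32) fell. Rpl13a, Uqcrh, Psmc6 and Psmd11 did not pass after the correction, nor Psmd11 with median-ratio scaling (adjusted p = 0.106), and Rpl13a overlaps Gm45713 on the same strand. Among 34 ribosome biogenesis genes Mybbp1a (-0.60) fell, with an adjusted p of 0.0579 under median-ratio scaling.

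Of the nuclear noncoding RNAs, Gas5, a snoRNA host transcript that is known to accumulate when growth stops, rose in all 10 animals, and its level ran from 7.36 to 24.2 TPM at 0 h (median 15.4) and from 16.4 to 35.7 TPM at 1 h (median 24.2) (change 0.65 ± 0.15 SE, adjusted p = 0.0410). Neat1, the scaffold of paraspeckles, ran from 36.3 to 153 TPM at 0 h (median 71.9) and from 24 to 128 TPM at 1 h (median 45.6) and fell (change -0.66 ± 0.12 SE, adjusted p = 0.0194). Neither passed after the length and GC correction (adjusted p = 0.0844 and 0.172), and Gas5 overlaps Zbtb37 on the other strand. Of 46 lists, 45 had members tested and 16 had no call. The list median was above 0 in 10 and below 0 in 35, and after the correction in 21 and 24.

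Markers of other cells were present at low levels and none of those tested was called. Tested were 10 of 11 Kupffer cell, 7 of 7 sinusoidal endothelial, 3 of 7 stellate cell and 2 of 5 cholangiocyte markers. Of the others, 0 of 6 lymphocyte, 2 of 4 neutrophil and 1 of 7 erythroid markers were tested. Kupffer cell markers summed to between 93.6 and 304 TPM at 0 h and between 91.4 and 270.1 TPM at 1 h, and sinusoidal endothelial markers to between 72.1 and 146 TPM and between 81.7 and 209 TPM. Stellate cell markers reached 28.6 TPM at most at 0 h and 51.0 TPM at 1 h, and cholangiocyte markers 108 and 99.9 TPM. Lymphocyte markers stayed at or below 5.63 TPM and neutrophil markers at or below 21.9 TPM in all 20 libraries. Of 7 erythroid markers, 6 haemoglobin genes were listed at 0 in all 20 libraries. The remaining erythroid marker, Alas2, ran from 71.2 to 134 TPM at 0 h and from 66.3 to 110 TPM at 1 h. The part of these cells in the results was not tested.

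The change was compared between offspring of NIC and TA fathers. No gene passed the interaction of father and time (0% of 10174 genes, smallest adjusted p = 0.645 by limma), with 416 genes at an unadjusted p under 0.05. The smallest p values were those of Hscb, with changes of 2.20 in TA and -0.70 in NIC offspring, of 5430416N02Rik (1.66 and -0.47) and of Tarbp2 (0.99 and -0.67), all with low levels. All 34 genes called under the 4 scalings changed in the same direction in both groups of offspring, which the pooled call favours. Mcl1 (0.52 in TA and 0.15 in NIC offspring) and 5031425E22Rik (2.13 and 0.86) had unadjusted interaction p values of 0.0167 and 0.00249 and adjusted p values close to 1. Sprr1a was 1.95 and 1.71, and Klf6 1.15 and 0.78. A missed threshold does not show that the groups responded alike.

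**Figure D5:**
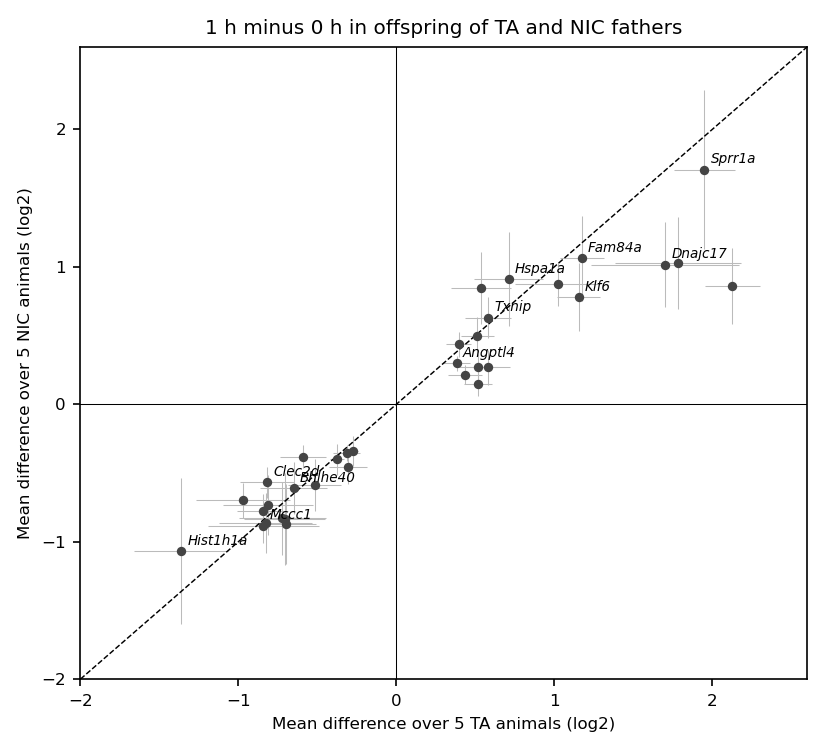
Change from 0 h to 1 h (log2(TPM + 1) scale) of the 34 genes called under all 4 scalings, with the mean of 5 offspring of TA fathers on the horizontal axis, that of 5 offspring of NIC fathers on the vertical axis, and bars of 1 SEM. All 34 genes have the same sign in both groups.

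The dates gave no call either (0% of genes, smallest adjusted p = 0.147 by limma, 420 genes at an unadjusted p under 0.05). The 34 genes had the same sign on both dates, which the pooled call favours here too. The genes of smallest p were 1700018L02Rik (1.00 on date A and -1.16 on date B), Coa3 (-0.56 and 0.15) and Scamp4 (-0.76 and 0.46). Within date A alone, 4 genes rose (Klf6, Tnfrsf12a, Txnip and Sprr1a) and 3 fell (Hist1h4d, Clec2d and Hist1h1e). Within date B none was called, and 819 of 10034 genes had an unadjusted p under 0.05, where a share of 0.05 is expected with no change. Sprr1a changed by 2.15 on date A and 1.34 on date B, Klf6 by 1.19 and 0.63, Clec2d by -0.66 and -0.75, and Hist1h4d by -1.11 and -0.28.

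The 3 h libraries of the same animals place the 1 h values in the course. These values share the 0 h libraries with the comparison above and are given with no test. The 3 h median was above the 0 h median in 42 of the 43 genes that rose and in 9 of the 231 that fell, against 34.3% of all genes tested. Sprr1a ran from 34.2 to 284 TPM (median 67.5) at 3 h, Klf6 from 52.2 to 256 TPM (median 126) and Tnfrsf12a from 29.3 to 194 TPM (median 71.1), so that the medians of all 3 were higher again than at 1 h. Ifrd1 went on to a median of 489.8 TPM, Hspa1a to 17.9 TPM and Plk2 to 44.9 TPM. Clec2d went on down to a median of 68.3 TPM, while Bhlhe40 was at 173 TPM, between its 0 h and 1 h medians. Sebox and 5031425E22Rik had lower medians at 3 h (1.77 and 3.83 TPM) than at 1 h.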

How the data were processed

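RNA was extracted from cultured hepatocytes with TRIzol, depleted of rRNA and made into strand-specific libraries for the NextSeq 500. Reads were mapped by the authors with Bowtie2 (build mm10), and their own tests used DESeq2. The versions and the counting tool are not given in the sources used here. The table deposited by the authors holds 1 value for each of 23126 genes and 60 libraries, described as ppm of mapped reads. In the 30 columns used, the values deposited by the authors are TPM by their behaviour, that is, normalised to transcript length and to a fixed library total before deposit. The other 30 columns, of other times and cultures, were not used. The table has 27 symbols turned into dates and 2 symbols listed more than once, which are not named. Nothing in TPM gives the read total, so that only relative depth is known.

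Within-animal differences of log2(TPM + 1) were modelled in R 4.3.3 by limma 3.58.1 with an intensity trend and the animal as a block, for genes with a mean above 1 TPM over 20 libraries, and p-values were adjusted by Benjamini-Hochberg. The study's count test was not used, because the values are not counts. Library properties were tested by exact sign-flip permutation. Pairing comes from consecutive library numbers of one title date. Deviations from the group means correlated at 0.134 to 0.54 within an animal, and each animal correlated best with its own library. On simulated data with 10174 genes and 10 pairs, 44% of changes of 0.5 and 85% of changes of 1 (log2) were recovered, with 8 other calls, and 0 genes were called where none was changed. The simulated noise was independent between genes and held no shift shared by a library or tied to transcript length. It therefore cannot show how many calls such shifts give. The labels list each library as a sample of its own but do not name its animal.

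Named genes were the 15 of largest change in each direction among those called, of 1 sign in all 10 animals and over 5 TPM at one time, up to 5 members of smallest p of each of 46 lists, up to 3 genes for each interaction, and Per1, Dusp1, Fos, Egr1, Myc, Igfbp1, Tat and Alb. Genes named outside this rule are marked in the text, and some that it selects are not reported here. The members, lists and tests were chosen with earlier results of these data known. Alternatives were other pseudocounts, filters, scalings, adjustments, the fit with no block, each date and father alone, each animal left out and, chosen after seeing the data, removal of the part of each library's deviations fitted by splines of 4 df on transcript length and GC content (GENCODE M21 annotation). Promoter sequences are from RefSeq (GRCm38.p6). Tables and figures were made with Python 3.11.15, pandas 2.3.3 and matplotlib 3.10.9.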

Additional observations from a re-analysis of the deposited data

Results flagged for a closer look

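In 8 of 113 groups of 10 values examined, 1 animal stood apart from the others by Dixon's criterion, where chance gives about 1 in 20. The 0 h library of NIC1 had 13585 genes above 0. The change of Suclg1 was -0.76 in NIC2, that of Il6ra -1.98 in NIC2, that of F830016B08Rik -1.09 in TA5 and that of Hsph1 -1.43 in TA5. Cyp2d9 changed by -0.67 in TA2. In TA1, Tat changed by 0.04 and Egr1 by 1.48.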

How the results depend on the processing

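The counts of genes that rose and fell (43 and 231) were within 1.5 times of these with pseudocounts of 0.1 (31 and 166) and 5 (45 and 236), a mean above 10 TPM (51 and 302) and robust moderation (44 and 228). They were 8 and 19 with no filter on low values, 115 and 75 with median-ratio scaling, 44 and 71 without the 20 most abundant genes, 18 and 20 after the length and GC correction, 3 and 2 with Holm adjustment, and 7 and 3 with a 2-fold minimum. Date A alone gave 4 and 3, date B alone 0 and 0, TA fathers alone 3 and 1, and NIC fathers alone 0 and 0 (1306 at an unadjusted p under 0.05). Leaving out 1 animal gave 6 to 45 genes that rose and 13 to 418 that fell. Without the animal as a replicate block, 1 gene rose and 0 fell, with 1202 at an unadjusted p under 0.05, so that the calls rest on the pairing within animals.

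Of 90 called genes followed one by one, 59 stayed called with median-ratio scaling, 57 without the most abundant genes and 34 after the length and GC correction, under which Mup3 (-0.0517) and Itih4 (0.0127) changed sign. No other called gene among them changed sign under any alternative. The father by time interaction gave 0 calls under every alternative run, and the date by time interaction 0 to 1 when 1 animal was left out, the 1 call coming without TA4. The cause of these shifts was not tested. Without read totals, the counting error of low genes is unknown.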
